A study of Mus musculus with 7 samples.

Results

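The genes described here are 49 genes of cargo transport between the endoplasmic reticulum and the Golgi, the compartments through which most secreted proteins pass. They were taken from a list of coat subunits, cargo receptors, p24 proteins, small GTPases, SNAREs and tethers and matched to the probes of the arrays through their transcript accessions, current or older symbols included. Of the 49 genes, 47 had a named probe and all 47 were tested, among 16940 items in all, while Sec31a and Tmed7 had no probe named through the annotation used and are not analysed here. An item is a named gene, measured by its brightest probe, or a probe without a name.

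Prostate RNA was measured in 7 samples of C57Bl/6 mice on 2-colour Agilent arrays. In the 3 PB-NICD samples (ARR2PB-Cre;ROSA(N1IC)), the ARR2PB promoter, active in the prostate, drives a Cre recombinase that releases expression of NICD, the active inner fragment of Notch1, at the ROSA locus. Mice of this model form PIN lesions (prostatic intraepithelial neoplasia), per the labels. The 4 controls were ROSA(N1IC) mice that the labels call NICD wild-type, so both groups carry the ROSA(N1IC) allele and the groups differ in the Cre. The labels give no ages and do not say that each sample is a separate animal, so the p-values measure the spread between these samples, which may be technical. Each value is a log2 ratio of the prostate sample (red) over a universal mouse reference RNA (green) on the same array, and a change subtracts the control mean of these ratios from the mean over PB-NICD samples.

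Secretory proteins leave the reticulum in vesicles with a COPII coat, which the GTPase Sar1 starts and the Sec23, Sec24, Sec13 and Sec31 subunits build, and they enter the Golgi after the vesicles are tethered and fused by SNAREs. Vesicles with a COPI coat, recruited by Arf GTPases, return receptors to the reticulum, together with escaped reticulum proteins that KDEL receptors bind. The luminal epithelium of the prostate secretes large amounts of protein into the seminal fluid, and cells with a heavy secretory load raise many of these genes through transcription factors of the unfolded protein response.

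The letters that one of those factors, XBP1, is known to bind are shown first because they were the motif that recurred among these promoters. RefSeq promoters (build GRCm38.p6), each running from 250 bases before to 50 after the gene's start, were found for 42 of the 49 genes. The letters TGACGTGG, the core of the unfolded protein response element (UPRE), were searched on either strand. They stood in a promoter of 7 of the 42 genes (16.7%), against 193 of all 27025 genes with a promoter (0.714%). These 27025 genes were not matched to the 42 in base composition or expression, and no test was made. The following windows give each match in capitals, read along the strand of the gene, with CCACGTCA where the match lies on the opposite strand.
Sec23a, chr12:59011994-59012021, minus strand: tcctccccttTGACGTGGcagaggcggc
Sec24d, chr3:123267460-123267487, plus strand: cccgggcgccTGACGTGGcactagcaac
Copb1, chr7:114254691-114254718, minus strand: ccgcccccttCCACGTCAgccaaggact
Copb2, chr9:98563714-98563741, plus strand: cccggaagttCCACGTCAgtgggttggc
Arf1, chr11:59228229-59228256, minus strand: cggcaggcgcTGACGTGGctgccgtcag
Kdelr3, chr15:79516368-79516395, plus strand: ggccgccccgCCACGTCAccgcgcggcc
Stx5a, chr19:8741423-8741450, plus strand: ggcgcagcagCCACGTCAccgagttagg
Stx5a, chr19:8741453-8741473, plus strand: tacgtctaggTGACGTGGcgg
These 7 genes encode COPII subunits (Sec23a, Sec24d), COPI subunits (Copb1, Copb2), an Arf GTPase (Arf1), a KDEL receptor (Kdelr3) and a SNARE (Stx5a), the last with 2 matches. The matches began between 30 bases before and 39 bases after the gene's start. In Sec24d the match began 26 bases before the start, and the 250 bases upstream of that gene, chr3:123267246-123267495 on the plus strand, are given in full as the promoter of the COPII subunit with the largest change.
Sec24d upstream region: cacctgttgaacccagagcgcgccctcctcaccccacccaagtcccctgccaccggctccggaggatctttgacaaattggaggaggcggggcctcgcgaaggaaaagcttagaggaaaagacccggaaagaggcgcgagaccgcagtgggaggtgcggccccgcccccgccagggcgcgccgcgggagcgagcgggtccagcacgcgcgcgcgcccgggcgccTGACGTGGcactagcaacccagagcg
The letters of 3 other motifs were in no promoter of the 42 genes. These were the reticulum stress element ERSE (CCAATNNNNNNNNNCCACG), ERSE-II (ATTGG and CCACG with 1 base between them) and CGTGGGAA, letters bound by the Notch partner RBPJ. Each was searched on both strands, and in that order they stood in 0.137%, 0.0444% and 0.862% of all genes with a promoter. A match describes letters in a window and shows no binding.

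The arrays were checked before the genes were compared. Between 44.8% and 66.8% of probes had a sample signal well above background on an array, no spot was saturated, and 6.02% to 17.8% of spots carried an outlier mark and were left out, so some genes lack a value on some arrays. Notch1 itself was higher in PB-NICD samples by 2.22 ± 0.21 on the log2 scale (limma, adjusted p = 0.000276). Its PB-NICD values were 2.64 and 2.74 on arrays 2 and 3, and a spot with an outlier mark, not used, read 2.48 on array 1, against 0.05 to 0.84 on the control arrays. The 7 arrays lay on 2 slides. PB-NICD 1 and controls 1 and 2 were on slide 1, and PB-NICD 2 and 3 and controls 3 and 4 on slide 2. The prostate marker Pbsn, a secreted product of the luminal cells, was high in both groups, at 9.81 to 10.15 in PB-NICD and 10.06 to 11.71 in control samples.

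Transport genes were lower in PB-NICD prostates across almost every functional group. At an adjusted p below 0.05 (limma, Benjamini-Hochberg over all 16940 items), 29 of the 47 genes tested fell and 0 rose, against 851 items that fell (5.02%) and 605 that rose (3.57%) over the whole array. At an unadjusted p below 0.05 the counts for the transport genes were 34 lower and 0 higher, against 12.7% of all items lower and 8.97% higher. The median change of the 47 genes was -0.59, against -0.02 over all items, and 43 of the 47 changes were below 0. In 35 genes every measured PB-NICD value lay below every measured control value, a pattern seen in 15.1% of all items. The changes of the 29 genes that fell ran from -1.84 for Mcfd2 to -0.44 for Arf1, and 6 of them exceeded a log2 unit. With median centring in place of loess, which raised the median of all items by 0.30, Sec13, Surf4, Tmed2, Tmed10, Arf1, Kdelr2, Yif1a and Stx5a had changes above 0 that were not called, and the other 21 of the 29 genes had changes below 0. In bulk tissue, fewer cells of a type and less RNA per cell cannot be told apart.

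**Figure D1:**
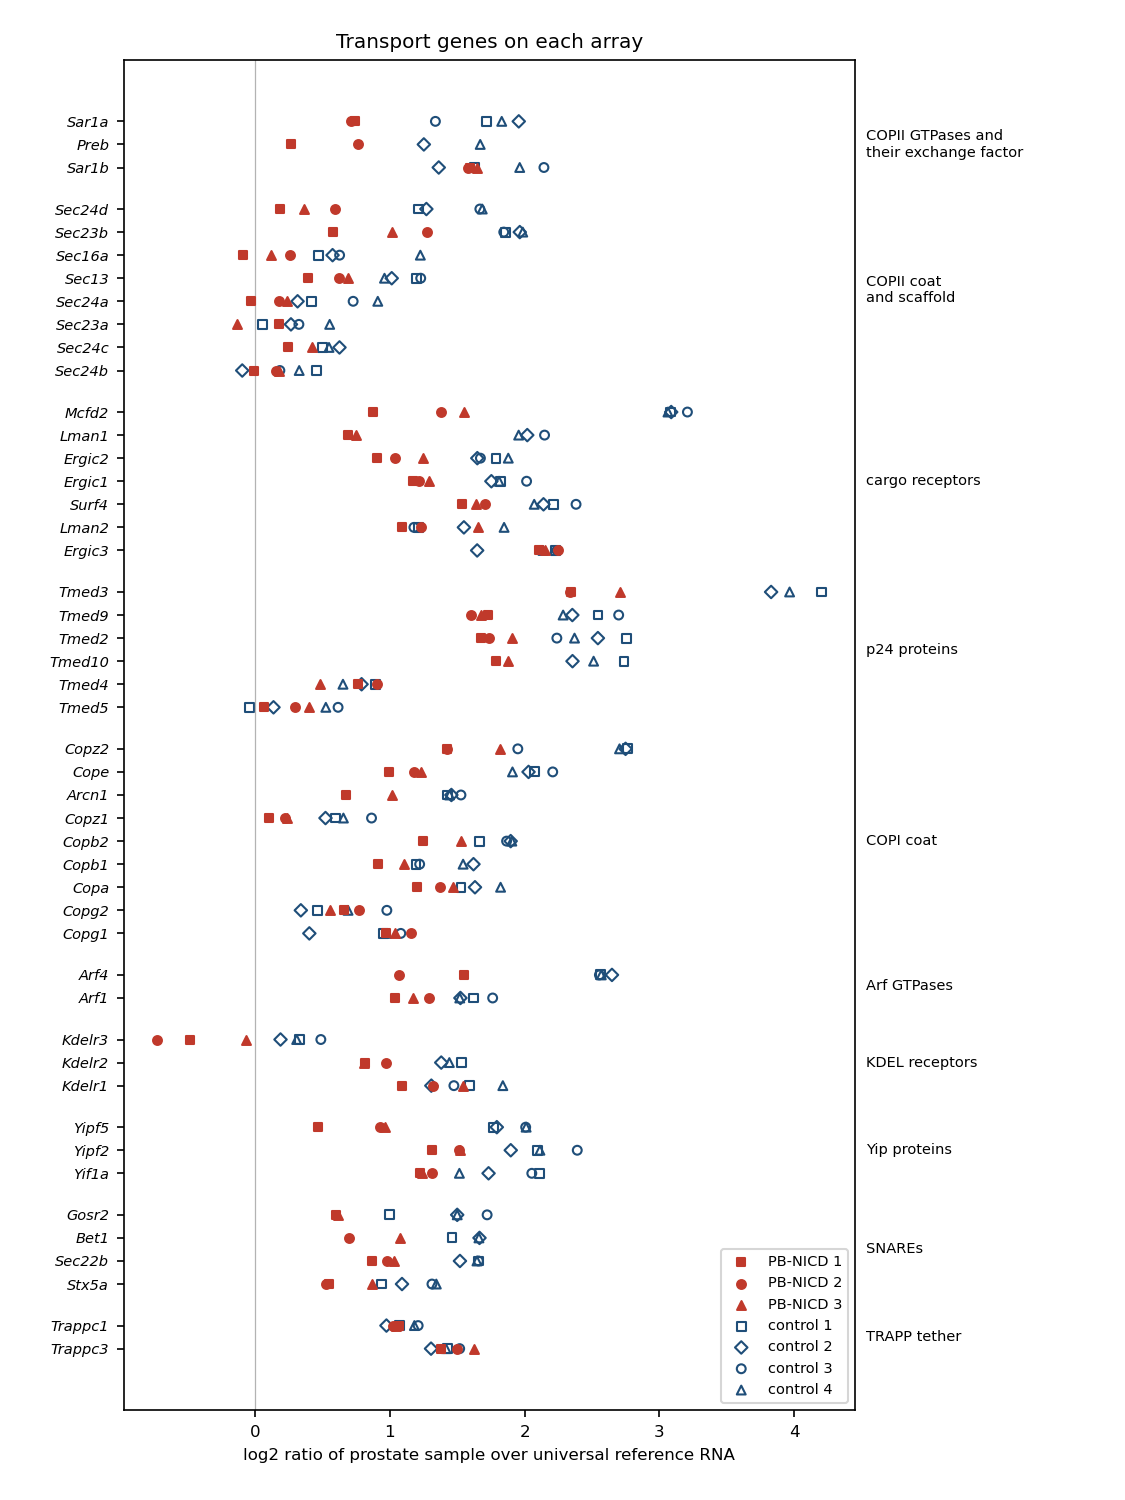
Log2 ratio of prostate sample over reference RNA (x axis) for each of the 47 transport genes (rows, grouped by role), with filled red symbols for the 3 PB-NICD arrays and open blue symbols for the 4 control arrays, each array with its own shape; spots marked as outliers are not drawn. The red symbols lie left of all blue ones in 35 genes, with the widest gap at Mcfd2, while the 2 TRAPP genes overlap.

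Each PB-NICD array showed the difference. The median deviation of the transport genes from the control mean was -0.67, -0.54 and -0.44 on PB-NICD arrays 1, 2 and 3, while that of all items was between -0.03 and -0.02. The genes below all their control values were 36 of 46 measured on the first array, 28 of 39 on the second and 34 of 44 on the third. Those above all their control values were 0, 3 and 1. The share of all items beyond the controls on a single array was not computed, so these counts have no background beside them. The deviation was widest on PB-NICD 1, and without that array 18 of the 29 genes were called (3.06% of all items then fell). The items that fell over the whole array were then 519, and 489 (2.89%) when PB-NICD 2 was left out instead. With the slide as a block in the fit, all 29 genes were called again and Sec16a, Sec24a and Copb2 joined them, 32 in all (7.28% of all items fell). Within slide 1, where the single PB-NICD array was assumed to vary like the controls, 26 of the 29 could be fitted, all 26 changes were below 0 and 13 were called (3.16% of all items fell). Within slide 2, 27 of the 29 could be fitted, all 27 changes were below 0 and 13 were called (3.38% of all items fell). The genes called within both slides were 7 in number: Sec23b, Sec24d, Mcfd2, Tmed3, Cope, Arf4 and Yipf5.

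Of the 11 genes tested for COPII coat assembly, 5 fell. Where an array is not named beside a value, its spot carried an outlier mark and was not used. Sar1a, the GTPase that starts COPII assembly, had log2 ratios of 0.74 and 0.71 on PB-NICD 1 and 2, against 1.72, 1.96, 1.34 and 1.83 on the control arrays. The groups did not overlap, and the change was -0.98 ± 0.17 (SE; limma, adjusted p = 0.00784), a fold of 0.506. Preb, the exchange factor that loads Sar1 with GTP, read 0.26 and 0.76 on PB-NICD 1 and 2, against 1.25 and 1.67 on controls 2 and 4. With only these 4 values its change was -0.95 ± 0.23 (limma, adjusted p = 0.0460), of which 0.40 was a rise of the reference channel. Preb was called in 2 of the 7 fits that left out an array. Channel values here and below were rebuilt from each array's normalized ratios and mean intensities, and are not raw signals. Sar1b, the paralog of Sar1a, had values of 1.58 to 1.64 in PB-NICD samples, inside the 1.36 to 2.14 of the controls, with a change of -0.17 (limma, adjusted p = 0.645).

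Among the inner coat subunits, Sec24d, which selects cargo, read 0.19, 0.59 and 0.37 on the PB-NICD arrays, against 1.21, 1.27, 1.67 and 1.69 on the control arrays. All PB-NICD values lay below all control values, and the change was -1.08 ± 0.16 (limma, adjusted p = 0.00208). In the sample channel alone Sec24d differed by -0.63 (adjusted p = 0.187), and its reference channel was 0.45 higher on the PB-NICD arrays. Sec23b, the partner of Sec24 that activates the GTPase of Sar1, read 0.58, 1.27 and 1.02 in PB-NICD samples, against 1.86, 1.96, 1.85 and 1.99 in control samples. The 4 controls lay within a narrow band above all PB-NICD values, and the change was -0.96 ± 0.15 (limma, adjusted p = 0.00376). In the outer coat, Sec13 read 0.40, 0.62 and 0.69 in PB-NICD samples and 1.20, 1.01, 1.23 and 0.96 in control samples. Its change was -0.53 ± 0.12 (limma, adjusted p = 0.0229), without overlap between the groups.

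The other COPII genes did not pass the threshold. The change of Sec16a, the scaffold of reticulum exit sites, was -0.63 (limma, adjusted p = 0.0593) and that of Sec24a -0.46 (limma, adjusted p = 0.103), and in both the groups did not overlap. Sec23a had -0.28 (adjusted p = 0.377), Sec24c -0.23 (adjusted p = 0.392) and Sec24b -0.11 (adjusted p = 0.716). Overlap between the groups was seen in Sec23a and Sec24b.

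**Figure D2:**
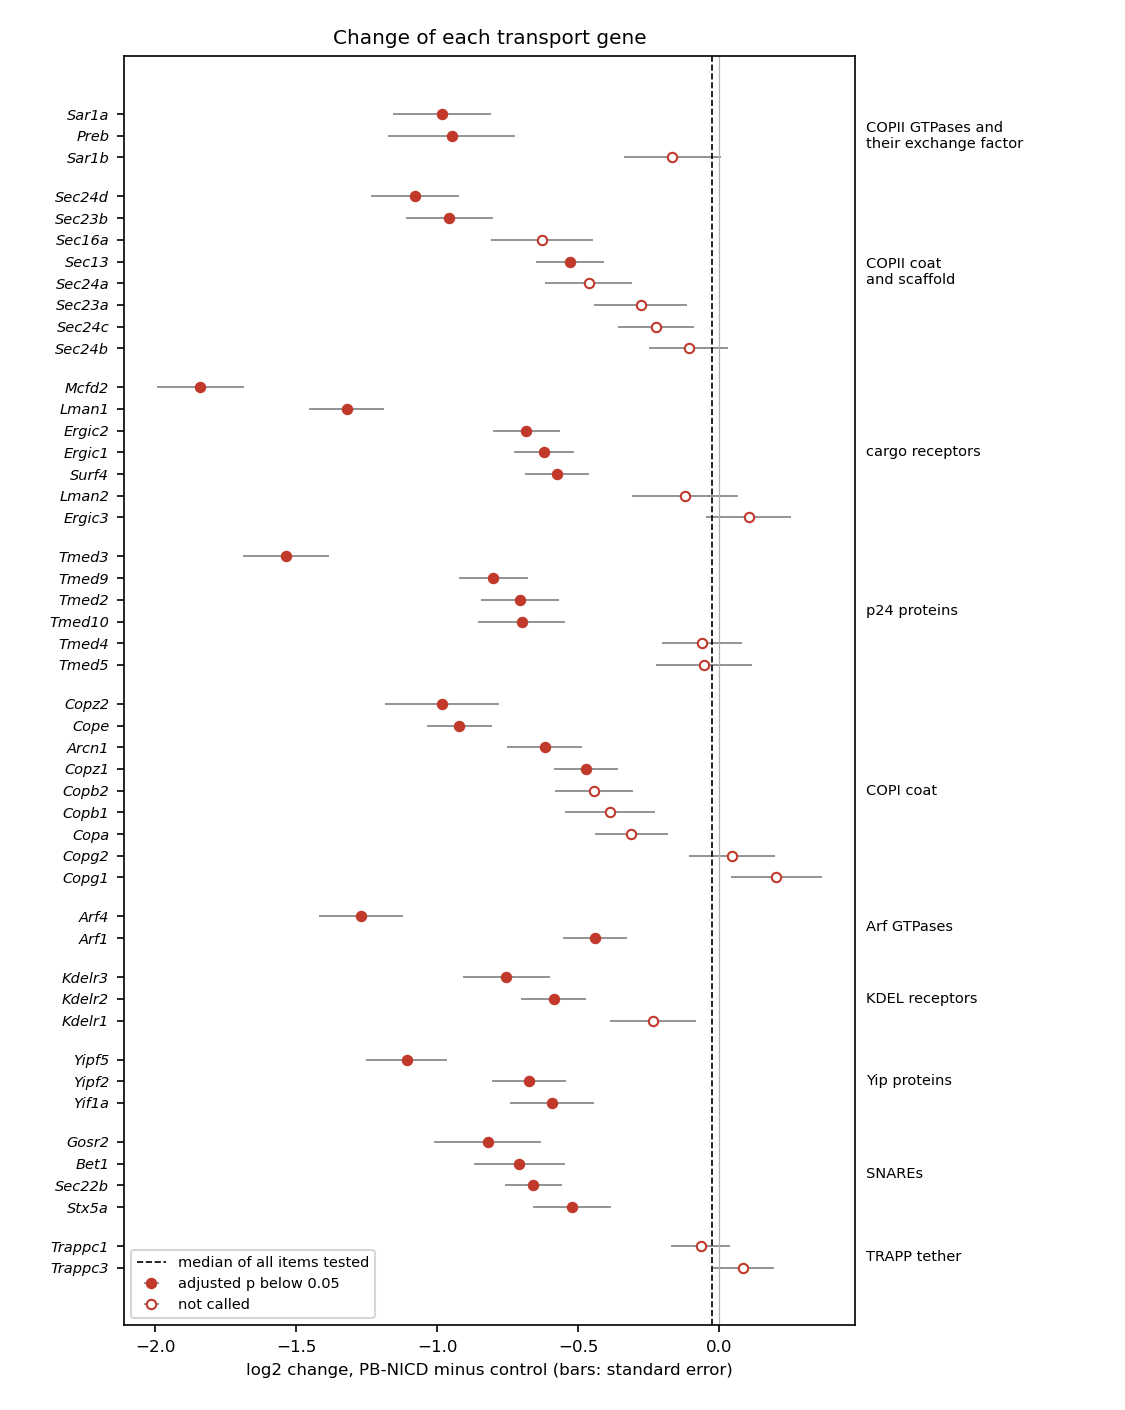
Log2 change, PB-NICD minus control (x axis), of the 47 transport genes (rows, grouped by role), with bars of 1 standard error, filled circles for genes with adjusted p below 0.05 and open circles for the others; the dashed line is the median of all items, -0.02. The 29 filled circles all lie left of 0 and the TRAPP genes lie at 0.08 and -0.07; with median centring in place of loess, 15 of the changes drawn left of 0 lie above it.

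Cargo receptors held the transport gene with the largest change. Mcfd2, which with Lman1 forms the receptor that carries coagulation factors and other glycoproteins out of the reticulum, read 0.88, 1.38 and 1.55 on the PB-NICD arrays, against 3.08, 3.09, 3.21 and 3.06 on the control arrays. The lowest control value stood far above the highest PB-NICD value. The change was -1.84 ± 0.15 (limma, adjusted p = 7.15e-05), a fold of 0.279. Its partner Lman1, a mannose-binding lectin, read 0.69 and 0.75 on PB-NICD 1 and 3, against 2.02, 2.15 and 1.96 on controls 2, 3 and 4. The change of Lman1 was -1.32 ± 0.13 (limma, adjusted p = 0.000736), a fold of 0.400, so both parts of the receptor fell.

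Ergic1, a membrane protein of the intermediate compartment, read 1.17, 1.22 and 1.29 in PB-NICD samples, against 1.82, 1.75, 2.01 and 1.81 in control samples. Its change was -0.62 ± 0.11 (limma, adjusted p = 0.00535), without overlap, though its other probe had a change of -0.20. Ergic2, of the same family, fell by 0.68 (limma, adjusted p = 0.00558), and its 4 probes ran from -0.79 to -0.12. Surf4, a receptor for lipoproteins and other soluble cargo, fell by 0.58 (limma, adjusted p = 0.0106). Ergic3 had a change of 0.10 (limma, adjusted p = 0.759) and Lman2, a lectin related to Lman1, had -0.12 (limma, adjusted p = 0.773), with overlapping groups in both.

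The p24 proteins, which bind cargo in both directions and shape vesicles, split into genes that fell and genes near 0. Tmed3 had values of 2.34, 2.34 and 2.71 on the PB-NICD arrays and 4.20, 3.83 and 3.96 on controls 1, 2 and 4. More than a log2 unit separated the groups, and the change was -1.54 ± 0.15 (limma, adjusted p = 0.000348), a fold of 0.345. Tmed9 read 1.73, 1.60 and 1.67 in PB-NICD samples, against 2.54, 2.35, 2.70 and 2.29 in control samples. Its change was -0.80 ± 0.12 (limma, adjusted p = 0.00294). In Tmed2 the values were 1.67, 1.73 and 1.91 in PB-NICD samples and 2.76, 2.54, 2.24 and 2.37 in control samples. It fell by 0.71 (limma, adjusted p = 0.0106), and all 3 of its probes lay between -0.75 and -0.71. Tmed10, with which Tmed2 forms complexes, fell by 0.70 (limma, adjusted p = 0.0277), and its other probe had -0.67. In the sample channel alone the difference for Tmed10 was -0.26 (adjusted p = 0.568), and the reference channel was 0.45 higher on the PB-NICD arrays. Changes of -0.06 were found for both Tmed4 (limma, adjusted p = 0.852) and Tmed5 (limma, adjusted p = 0.896), whose groups overlapped.

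In the COPI coat, which returns material from the Golgi, 4 of 9 subunits fell. Cope, the epsilon subunit, read 0.99, 1.18 and 1.23 on the PB-NICD arrays, against 2.08, 2.03, 2.21 and 1.91 on the control arrays. The groups were clearly apart, and the change was -0.92 ± 0.11 (limma, adjusted p = 0.000883). Copz2, a zeta subunit, read 1.43, 1.43 and 1.82 in PB-NICD samples and 2.76, 2.75, 1.95 and 2.70 in control samples. Control 3 lay close to PB-NICD 3, and the change was -0.98 ± 0.20 (limma, adjusted p = 0.0140). Arcn1, the delta subunit, read 0.68 and 1.01 on PB-NICD 1 and 3, against 1.43, 1.46, 1.53 and 1.44 on the control arrays. Its change was -0.62 ± 0.13 (limma, adjusted p = 0.0204), and its 4 probes ran from -0.83 to -0.34. The other zeta subunit, Copz1, fell by 0.47 (limma, adjusted p = 0.0301) and was called in 1 of the 7 fits that left out an array.

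The remaining COPI subunits were not called. Copb2 had a change of -0.45 (limma, adjusted p = 0.0872), Copb1 -0.39 (adjusted p = 0.196) and Copa -0.31 (adjusted p = 0.199), without overlap of the groups in all 3. The gamma subunits had changes above 0, with 0.20 for Copg1 (limma, adjusted p = 0.530) and 0.04 for Copg2 (adjusted p = 0.907), and their groups overlapped.

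Both Arf GTPases fell. Arf4, which acts between the intermediate compartment and the Golgi, read 1.55 and 1.07 on PB-NICD 1 and 2, against 2.56, 2.65, 2.55 and 2.57 on the control arrays. The 4 controls were nearly equal and stood above both PB-NICD values, and the change was -1.27 ± 0.15 (limma, adjusted p = 0.000982), a fold of 0.414. Arf1, which recruits the COPI coat and carries a UPRE match 21 bases after its gene start, read 1.04, 1.29 and 1.17 in PB-NICD samples and 1.62, 1.52, 1.76 and 1.52 in control samples. Its change was -0.44 ± 0.11 (limma, adjusted p = 0.0391), and the adjusted p ranged from 0.0596 to 0.139 when any 1 array was left out.

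The KDEL receptors return chaperones to the reticulum. Kdelr2 read 0.81, 0.97 and 0.81 on the PB-NICD arrays, against 1.53, 1.38 and 1.44 on controls 1, 2 and 4. Its change was -0.59 ± 0.11 (limma, adjusted p = 0.0132), without overlap. Kdelr3, with a UPRE match 30 bases before its start, read -0.48, -0.73 and -0.07 in PB-NICD samples and 0.33, 0.19, 0.49 and 0.31 in control samples. The PB-NICD values lay below the reference RNA and the control values above it, and the change was -0.76 ± 0.16 (limma, adjusted p = 0.0135). Kdelr1 had a change of -0.24 (limma, adjusted p = 0.425), with overlapping groups.

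All 3 Yip proteins, membrane proteins of the early Golgi that interact with Rab GTPases, fell. Yipf5 read 0.47, 0.93 and 0.96 on the PB-NICD arrays, against 1.77, 1.79, 2.01 and 2.01 on the control arrays. Its change was -1.11 ± 0.14 (limma, adjusted p = 0.00108). Yipf2 read 1.32, 1.51 and 1.52 in PB-NICD samples and 2.10, 1.90, 2.39 and 2.11 in control samples, with a change of -0.68 ± 0.13 (limma, adjusted p = 0.0105). Yif1a read 1.23, 1.31 and 1.24 in PB-NICD samples and 2.11, 1.73, 2.05 and 1.52 in control samples. The controls of Yif1a spread widely but stayed above all PB-NICD values, and its change was -0.59 ± 0.15 (limma, adjusted p = 0.0364), called in 1 of the 7 fits that left out an array.

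The 4 SNAREs of fusion between the reticulum and the Golgi fell together. Sec22b read 0.87, 0.98 and 1.03 on the PB-NICD arrays, against 1.66, 1.52, 1.66 and 1.65 on the control arrays. Its change was -0.66 ± 0.10 (limma, adjusted p = 0.00298). Gosr2 (membrin) read 0.60 and 0.62 on PB-NICD 1 and 3, against 1.00, 1.50, 1.72 and 1.50 on the control arrays, a change of -0.82 ± 0.19 (limma, adjusted p = 0.0277). Bet1 read 0.70 and 1.08 on PB-NICD 2 and 3, against 1.46, 1.67 and 1.66 on controls 1, 2 and 4, a change of -0.71 ± 0.16 (limma, adjusted p = 0.0320), while its other probe had -0.15. Stx5a (syntaxin 5), with UPRE matches 9 and 39 bases after its start, fell by 0.52 (limma, adjusted p = 0.0445) and was called in 2 of the 7 fits that left out an array. In all 4 genes the measured values of the groups did not overlap.

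The TRAPP tether, an exchange factor for Rab1 that holds incoming vesicles, was the single role with no gene called. Trappc3 read 1.38, 1.50 and 1.62 on the PB-NICD arrays, against 1.43, 1.31, 1.52 and 1.42 on the control arrays. These values overlapped, with a change of 0.08 ± 0.11 (limma, adjusted p = 0.720). Trappc1 had a change of -0.07 (limma, adjusted p = 0.778).

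With the spots marked as outliers kept, the same 29 genes were called, among them Arf4 with 1.86 and Sar1a with 1.00 on PB-NICD 3. Of the 29 genes, 15 were called in every one of the 7 fits that left out an array: Sec23b, Sec24d, Lman1, Mcfd2, Surf4, Ergic1, Ergic2, Tmed2, Tmed3, Tmed9, Cope, Arf4, Yipf2, Yipf5 and Sec22b. Arf1 was called in none of them, Copz1 and Yif1a in 1, and Preb and Stx5a in 2. Of the 47 genes, 23 had more than 1 tested probe, and in none of them did a probe have a change of opposite sign to the one used. Among these the called genes with another probe at an unadjusted p above 0.05 were Arcn1, Bet1, Ergic1 and Ergic2.

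The measured level and the normalization bear on these counts. Among items with a mean ratio above 1 in the control arrays, 22.3% fell and the median change was -0.24, against 2.25% and -0.01 among items at or below it. Of the 36 transport genes above that level, 27 fell with a median of -0.67, and of the 11 at or below it, Copz1 and Kdelr3 fell, with a median of -0.23. The control mean enters both measures, so part of such a trend is built in. Replacing the loess step by median centring moved the median of all items to 0.27, and 281 items (1.66%) then fell and 4287 (25.3%) rose, against 851 and 605. Under that scaling Mcfd2, Lman1, Sec24d and Tmed3 still fell, with changes of -1.12, -0.79, -0.71 and -0.65, while Ergic3 and Trappc3 rose by 0.61 and 0.58. The median of the transport genes was then -0.05, which is -0.33 relative to the median of all items, against -0.57 with loess, and 28 of the 29 genes stayed below the median of all items. With the sample channel alone, 12 genes fell and the median was -0.45, and over all items 413 (2.44%) fell and 469 rose. The green channel held the same reference RNA on every array, and its rebuilt values differed too. The median PB-NICD minus control difference was 0.14 over the transport genes and 0.03 over all items. Part of the loess correction enters these values, so they are not a comparison of raw green signals.

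**Figure D3:**
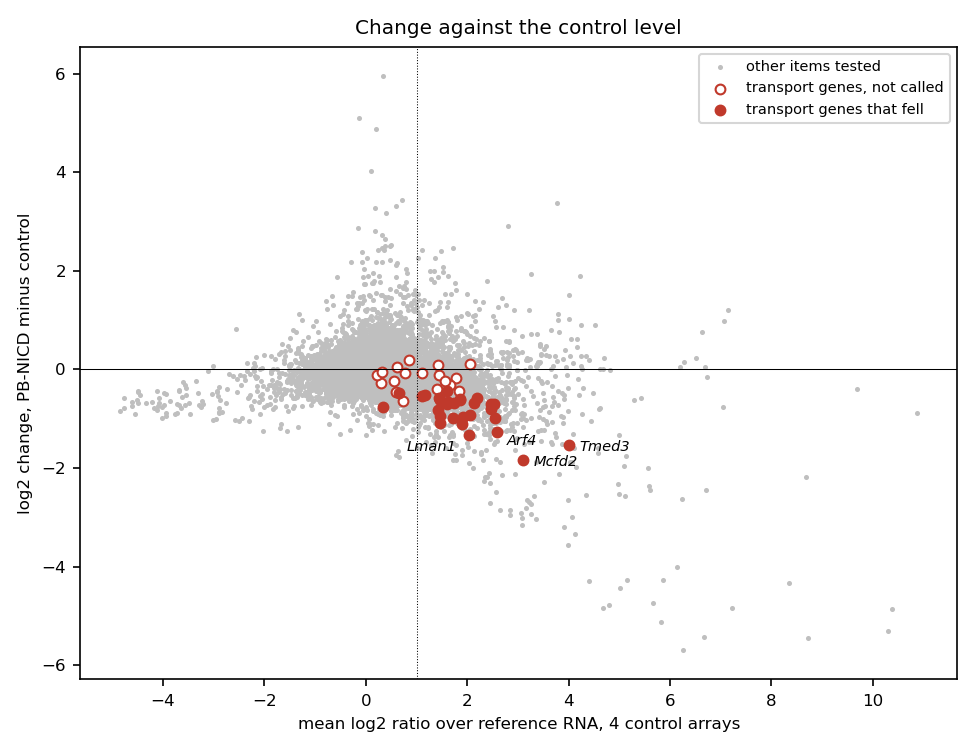
Log2 change, PB-NICD minus control (y axis), against the mean log2 ratio over reference RNA in the 4 control arrays (x axis), for all items tested (grey), transport genes that fell (filled red) and transport genes not called (open red). Transport genes lie at control levels above 1 in 36 of 47 cases (right of the dotted line), where 22.3% of all items fell, against 27 of these 36 genes; with median centring the whole cloud sits higher, at a median of 0.27.

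**Figure D4:**
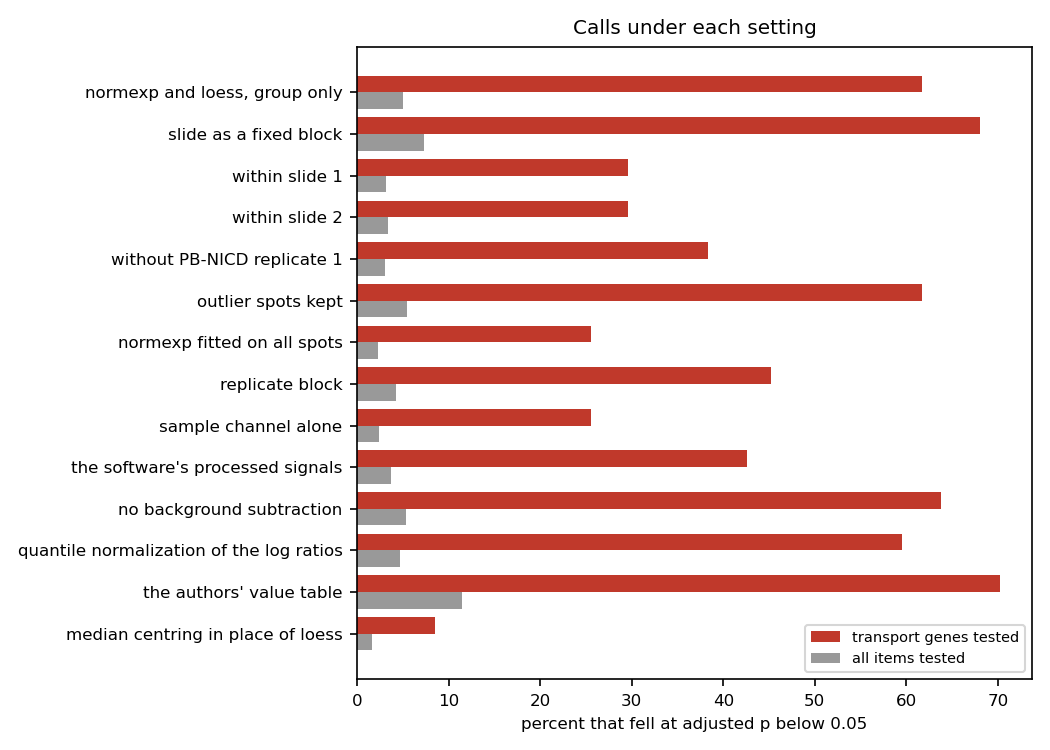
Percent of the transport genes tested (red) and of all items tested (grey) that fell at adjusted p below 0.05 (x axis) under 14 ways of processing or fitting the same arrays (rows). The red bar is longer than the grey one in each, and shortest with median centring, where 4 of 47 transport genes fell and Ergic3 and Trappc3, not shown by the bars, rose.

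Related genes were compared within each array by the difference of their log2 ratios, in 16 pairs, with an exact permutation test over the samples (two-sided) and adjustment over the 16 pairs. The smallest adjusted value was 0.2. With a smallest possible exact permutation p of 0.0286, 0.0667 or 0.1 per pair, no pair could pass 0.05 after adjustment. The adjusted values therefore cannot show that related genes changed alike. Sec24d minus Sec24a averaged 0.25 ± 0.15 in PB-NICD samples and 0.87 ± 0.09 in control samples (SD, n = 3 and 4), a difference of -0.62 (exact permutation p = 0.0286, the smallest this design allows). In the sample channel alone this difference was -0.17 (exact permutation p = 0.6). Ergic1 minus Ergic3 averaged -0.94 ± 0.08 in PB-NICD samples and -0.21 ± 0.23 in control samples (SD, n = 3 and 4), a difference of -0.72 with the same exact permutation p, and -0.51 with the mean of each gene's probes (exact permutation p = 0.0571). Kdelr3 minus Kdelr1 differed by -0.52 between the groups (exact permutation p = 0.0571), and by -0.13 with median centring. Values left out as outliers raised the smallest possible p for other pairs. Lman1 minus Lman2 differed by -1.17 and Tmed3 minus Tmed9 by -0.81 (exact permutation p = 0.1 each, the smallest possible there). Arf4 minus Arf1 differed by -0.83 and Sec23a minus Sec23b by 0.84 (exact permutation p = 0.0667 each, again the smallest possible). The first was -0.46 without PB-NICD 2. The second was 0.46 without PB-NICD 1, 1.21 without PB-NICD 3 and 0.39 with median centring.

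Outside the list, 68 further genes of the same transport route, the transcription factor Creb3l2 among them, were examined and 61 could be tested. Of these 9 (14.8%) fell and 0 rose (limma, adjusted p below 0.05), against 5.02% and 3.57% of all items, with a median change of -0.21. At an unadjusted p below 0.05 there were 23 lower and 1 higher, against 12.7% and 8.97% of all items. The count that fell was 2 (3.28%) without PB-NICD 1, near the 3.06% of all items, 3 (4.92%) without PB-NICD 2, against 2.89%, and 5 (8.20%) without control 3, against 4.83%. With median centring the direction turned, with 1 gene that fell, 7 that rose and a median of 0.14, which is -0.14 relative to the median of all items. GTPases and their regulators made up 5 of the 9. Gbf1, the exchange factor that activates Arf1 at the early Golgi, read -0.43, -0.73 and -0.23 in PB-NICD samples and 0.63, 0.77, 0.54 and 0.53 in control samples, and fell by 1.08 (adjusted p = 0.000883). Rab1a, which directs vesicles from the reticulum to the Golgi, fell by 0.82 (adjusted p = 0.00397) and Rab1b by 0.49 (adjusted p = 0.0319). Rab2a, which acts in the intermediate compartment, fell by 0.59 (adjusted p = 0.0117), and Arfgap3, which stimulates GTP hydrolysis by Arf1, by 0.89 (adjusted p = 0.0453). Gorasp2, a Golgi stacking protein, fell by 0.81 (adjusted p = 0.0259), the TRAPP subunit Trappc2l by 0.63 (adjusted p = 0.0234) and Yif1b, the paralog of Yif1a, by 0.53 (adjusted p = 0.0338). Creb3l2, a transcription factor known to drive COPII genes, fell by 0.45 (adjusted p = 0.0380). It was the 1 gene called of 16 tested that were listed as COPII assembly and export factors. None of the 11 other SNAREs and retrieval tether genes was called.

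Genes with and without a UPRE match were among those that fell. Of the 7 genes with a match, Sec24d, Kdelr3, Stx5a and Arf1 fell, 4 of the 24 called genes with a promoter. The 7 genes had a median change of -0.45, and the 34 tested genes with a promoter but no match had a median of -0.61. No test was made of this difference.

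Markers of the cell types in the tissue were read beside these changes. Medians of a list are given with outlier spots kept, so that every array has the same markers, a choice made after seeing the data. The median ratio of the 8 luminal markers was 3.02 to 3.14 on the PB-NICD arrays and 2.53 to 3.21 on the control arrays, and these ranges overlapped. Within that list Cd24a, a surface protein, fell by 2.00 (limma, adjusted p = 0.00879) and the keratin Krt19 rose by 1.00 (adjusted p = 0.0312), while Krt8, Krt18, Epcam, Cdh1 and Foxa1 were among those not called. The fit of Cd24a used only 3.05 and 4.09 on PB-NICD 2 and 3, and 5.55 and 5.59 on controls 2 and 4. The median of the 6 basal markers was 0.04 to 0.18 in PB-NICD and 0.58 to 1.06 in control samples, without overlap. Of these the keratins Krt5 and Krt15 fell by 1.74 (adjusted p = 0.000130) and 1.17 (adjusted p = 0.00394) and the integrin Itga6 by 0.55 (adjusted p = 0.0210). Smooth muscle markers had a median of 2.11 to 2.59 in PB-NICD and 2.65 to 3.13 in control samples, again without overlap. With outlier spots left out, control 3 had a median of 1.83 over fewer markers, below the 2.13 to 2.55 of the PB-NICD arrays. All 8 smooth muscle markers had changes below 0, with a median change of -0.48, and Tpm2 and Actg2 fell. At an unadjusted p below 0.05, 6 of the 8 were lower. No fibroblast marker of 7 was called, and of 7 leukocyte markers Cd4 alone was, with a change of -3.56 (adjusted p = 2.38e-05). The urothelial marker Upk3a rose by 5.11 (limma, adjusted p = 0.000528), and Upk1b and Upk2 were not called. Upk3a had only 5.73 and 4.23 on PB-NICD 1 and 2, and -0.06 and -0.19 on controls 2 and 4. The change of its reference channel was -0.91. Svs4, a protein of the seminal vesicle, read 5.75, 0.71 and 0.66 on the PB-NICD arrays and 2.36, 9.39, -0.02 and -0.28 on the control arrays, highest on PB-NICD 1 and control 2. Sbp, a secreted prostate protein, fell by 4.85 (limma, adjusted p = 0.0418) but spread widely in PB-NICD samples, with 2.38, 4.75 and 9.44, against 11.50, 10.38, 10.12 and 9.50 in control samples. The part of these cell types in the changes of the transport genes was not tested.

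The 5 named genes whose profiles over the 7 arrays were most like the median of the transport genes, by Pearson correlation among 7494 named genes measured on all arrays, were Nudt4 (r = 0.994), Antxr1 (0.992), Carnmt1 (0.992), Tpd52 (0.992) and Prdx6b (0.991). Nudt4 had a change of -0.80, Tpd52, a protein of secretory epithelia, -0.94, and Prdx6b, a peroxiredoxin, -2.45. With 7 arrays in 2 groups such a likeness follows mainly the difference between the groups, and it is given as a description.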

How the data were processed

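Per the file headers, the authors deposited Agilent Feature Extraction 10.7.3.1 output with spot and background intensity values for both channels, a log10 ratio per spot and quality flags coded as yes or no. Median signals were used, since mean signals are not among the columns used here. The authors also deposited a table of log2 ratios, with its normalization not given in the sources used. Its column medians ran from -0.01 to -0.00 (-0.0112 to -0.00439), and each column correlated best with its own array, positively, so its direction is red over green.

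Spots were background-corrected with normexp (offset 50), normalized by loess within arrays and tested with limma 3.58.1 in R 4.3.3, two-sided, with Benjamini-Hochberg adjustment. The normexp parameters were estimated without spots marked as background outliers, a choice made after seeing that PB-NICD 1 matched the authors' table poorly. With all spots its centred correlation was 0.250 with its own column and at most 0.494 with another array, against 0.906 and 0.454 as used. On PB-NICD 1, 6 sample-channel spots lay over 30 units under their background, the lowest at -47741, and with all spots the fitted background SD was 344, against 1.62 without them. Control spots and outlier spots were left out, and the filter on dim probes asked for sample signals well above background on 3 or more arrays and for 2 or more values in each group. A gene's brightest probe was used. Sample and reference channel values were computed from the log2 ratio and the mean log2 intensity after loess and Aquantile normalization. Aquantile gives the mean intensities the same distribution on every array. Depth is not defined for arrays, and the 7 arrays limit the precision. The test was also run on simulated data with independent noise for each value, without slide effects or a normalization step. That run does not bear on how slide or normalization move the counts.

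Every called member is named, array values are given for up to 3 called members of each role with the smallest p (the 1 with the smallest p where none was called), members not called are named with their change, and pathway genes are named where called. The members, the lists and these rules were chosen with earlier results of these data known. Gene positions and promoters came from RefSeq GRCm38.p6. The deviations of same-numbered samples from their group means had r = 0.32, -0.24 and 0.08. The samples numbered 1, and those numbered 3, shared a slide, while those numbered 2 did not. Between the groups, r was 0.08 to 0.36 on the same slide and -0.38 to -0.14 on different slides. The check therefore cannot tell pairing by number from the slide, and the main fit used no pairing. Alternatives covered background correction, normalization, filters, probe choice, slide, replicate block and leaving out each array.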

Additional observations from a re-analysis of the deposited data

Results flagged for a closer look

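Among the transport genes, 38 groups of 4 control values were examined for a value standing apart by Dixon's ratio, the gap to the nearest other value over the whole range, and 5 did so. Chance flags about 1 in 20 such groups. Mcfd2 read 3.21 on control 3, a little above the other controls, and Arf4 read 2.65 on control 2, also above them. Copb2 read 1.66 on control 1, Copz2 1.95 on control 3 and Sec22b 1.52 on control 2, each below the other controls. In Mcfd2, Arf4, Copb2, Copz2 and Sec22b these values stayed above every measured PB-NICD value.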

How the results depend on the processing

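The count of 29 transport genes called was 18 to 25 when 1 array was left out, 19 with the replicate block, 13 within slide 1, 13 within slide 2, 12 with the sample channel alone, 12 with normexp fitted on all spots (chosen after seeing the data) and 6 with median centring (4 lower, 2 higher). The count over all items, 1456 in the main setting, was 852 to 1471 with 1 array left out, 826 within slide 1, 879 within slide 2, 882 with the sample channel alone, 455 with normexp on all spots (387 lower, 68 higher), 4568 with median centring and 3207 from the authors' deposited table. The count of other pathway genes, 9 in the main setting, was 2 to 6 with 1 array left out, 2 with the sample channel alone, 5 without the filter on dim probes, 15 with the slide as a fixed block, 3 within slide 1, 5 within slide 2, 26 from the authors' deposited table and 2 with normexp on all spots, while with median centring it was 8, of which 1 fell and 7 rose. The median change of the transport genes, -0.59, was -0.055 with median centring, -0.45 with the sample channel alone, -0.47 with the mean of a gene's probes and -0.70 with normexp on all spots. The cause of these differences was not tested. The replicate block left 19 of 42 transport genes called, and 1136 items in all, and whether the numbers pair samples is not known. Mcfd2, Lman1 and Tmed3 were called in every setting that gave them a value. Over the changes of single transport genes in all alternatives, 901 values kept their sign and their side of the threshold, 157 lost the call and 14 gained it. The other 42 changed sign, none of them called. The 901 include an alternative, Aquantile normalization after loess, that leaves the log ratios as they were, so its values could not differ. With median centring the values that changed sign were 0.54 for Sec24c, 0.15 for Sec13, 0.19 for Lman2, 0.11 for Surf4, 0.016 for Tmed2, 0.47 for Tmed4, 0.068 for Tmed10, 0.51 for Copa, 0.19 for Copb1, 0.17 for Copb2, 0.28 for Arf1, 0.26 for Kdelr2, 0.055 for Yif1a, 0.070 for Stx5a and 0.45 for Trappc1. With the sample channel alone they were 0.082 for Sar1b, 0.095 for Lman2, 0.11 for Tmed5 and 0.091 for Trappc1. Within slide 1 they were 0.10 for Sar1b, 0.016 for Sec23a, 0.020 for Tmed5 and 0.043 for Trappc1, and within slide 2 0.041 for Tmed4 and -0.17 for Copg2. The replicate block gave 0.011 for Lman2 and 0.017 for Tmed5, the software's processed signals -0.086 for Ergic3 and -0.023 for Copg2, and normexp on all spots -0.20 for Ergic3, -0.035 for Copg1, -0.12 for Copg2 and -0.15 for Trappc3. With 1 array left out, changes ran from -0.29 to 0.011 for Lman2, -0.035 to 0.16 for Ergic3, -0.16 to 0.056 for Tmed4, -0.17 to 0.047 for Tmed5 and -0.048 to 0.16 for Copg2.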
